A study of Homo sapiens with 8 samples.

Results

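The genes described here build and control the vesicle coats that carry proteins between the endoplasmic reticulum (ER) and the Golgi apparatus. They are 39 genes listed by symbol for their known roles, not for any measured value: 9 subunits of the COPI coat, 14 genes of the COPII coat and its assembly, 3 exchange factors that load ARF proteins with GTP, 5 ARF GTPases, 3 ARF GTPase activating proteins, 2 cargo receptors and 3 KDEL receptors. Of these, 38 were measured, among 19775 genes in all. KDELR2 had no probe set listed with its symbol alone and is not described further.

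Kasumi-1 is an established human acute myeloid leukemia (AML) cell line that carries the AML-ETO fusion. Cells were electroporated with in vitro transcribed RNA (IVT-RNA), and total RNA taken 6 h later was hybridized to human genome U133 Plus arrays: 2 arrays of cells given NR4A1 CEAA, 3 of cells given NR4A1 WT and 3 of cells given GFP, the control. NR4A1 CEAA is a form of the nuclear receptor NR4A1 with a cysteine and a glutamate of the DNA-binding domain changed to alanine, and it was used to ask which effects of NR4A1 WT need that domain. Cells of all 3 groups were electroporated, the controls too, so every comparison is between RNAs and none is with untouched cells. Whether the arrays of a group stand for separate cultures is not stated, and the tests therefore cover the spread among these arrays alone, which may be technical. As RNA of whole cultures was measured, a large change in some cells and a small one in all cannot be told apart. The number of arrays limits the precision.

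COPII coats form at exit sites of the ER, where the exchange factor PREB (Sec12) loads the GTPase SAR1 with GTP. SAR1 recruits the SEC23-SEC24 inner layer, in which SEC24 binds cargo, and then the SEC13-SEC31 outer cage. COPI coats form on Golgi and intermediate compartment membranes once GBF1 has loaded an ARF with GTP, carry escaped ER proteins and recycling receptors back, and come off after ARF GTPase activating proteins have turned GTP over. These genes are active in nearly every cell, and demand on them is known to rise with secretory load.

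All levels below are log2 probe set signals, and a fold change is a difference of log2 signals, so that 1 stands for a doubling. A gene was followed by its brightest probe set with 1 gene symbol, and a difference was called at an adjusted p under 0.05 in limma. Array medians lay between 4.755 and 4.802, and the SD of the difference between arrays of 1 group over these genes was 0.089 for NR4A1 CEAA, 0.094 to 0.146 for NR4A1 WT and 0.068 to 0.1 for GFP. Markers of the leukemic cells were high in every array (MPO 14.34 to 14.43, KIT 13.45 to 13.78, RUNX1T1 11.07 to 11.61, CD34 7.44 to 7.88), while ANPEP (5.85 to 6.25), SPI1 (5.72 to 6.89) and CD38 (4.92 to 5.64), also listed as markers of these cells, lay closer to the array medians. The T cell, B cell, erythroid and monocyte markers measured lay between 3.16 and 5.69. NR4A1 itself did not separate the groups: its brightest probe set read 6.52 to 6.56 in NR4A1 CEAA cells, 6.47 to 6.61 in NR4A1 WT cells and 6.28 to 6.58 in GFP cells. Whether its 3 probe sets read the introduced RNA, which was made from the coding sequence, was not tested, so they do not check the labels of the arrays.

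With NR4A1 WT, COPI and COPII genes tended to be called higher than in GFP cells. Of the 38 genes, 9 were higher and 1 was lower, which is 23.7% and 2.63% of them, against 9.97% and 10.3% of all genes. The median log2 fold change was 0.10, against 0.002 over all genes. The 9 genes were SEC24A, COPG2, GBF1, SAR1A, COPB1, TFG, COPB2, SEC24C and COPG1, and the lower one was MCFD2. The largest of these changes was 1.37-fold, for SEC24A. With Rank Product, the test named in the methods, none of the 38 passed a q of 0.05 in either direction. Of all 19775 genes, 439 passed it as higher and 421 as lower. The limma shares of all genes include dim genes, while all 38 passed a filter on dim probe sets that kept 13180 genes. With that filter limma gave 14 higher and 2 lower of the 38, against 2268 and 2382 of the 13180.

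NR4A1 CEAA split the group. Against GFP, 8 of the 38 genes were higher (21.1%) and 11 lower (28.9%), beside 7.14% and 12.1% of all genes, and the median was 0.01 against -0.026 over all genes. COPE, GBF1 and ARFGAP2 fell furthest and were the 3 that also passed Rank Product. SEC24D, SEC23A, SEC24A and SEC23B rose furthest, and none of the higher genes passed Rank Product. Of all genes, 92 passed it as higher and 267 as lower. Set directly against NR4A1 WT, NR4A1 CEAA had 5 genes higher (13.2%) and 15 lower (39.5%), beside 13.4% and 18% of all genes, with a median of -0.12 against -0.031 over all genes. GBF1 and COPE, both lower, passed Rank Product there, among 187 higher and 356 lower of all genes. The comparisons share arrays, so their counts are not independent of one another. With the filter on dim probe sets, more genes were called out of fewer. For NR4A1 CEAA against GFP, 10 of the 38 were then higher and 11 lower, beside 1849 and 2863 of the 13180 kept. Against NR4A1 WT, 7 were higher and 17 lower, beside 2837 and 3714.

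**Figure D1:**
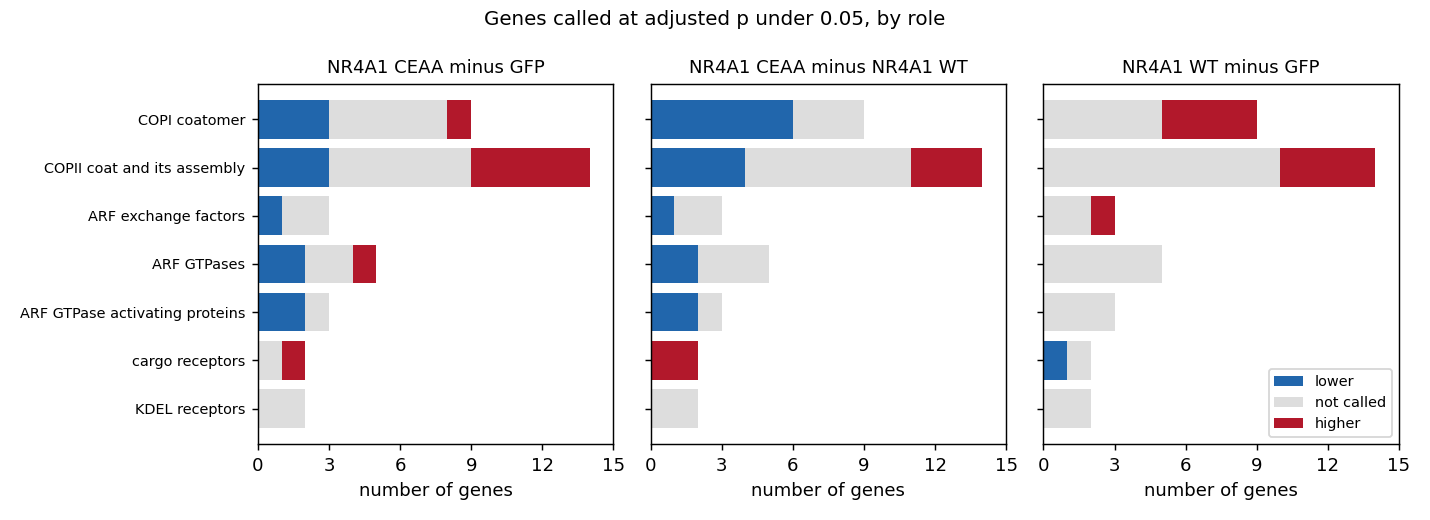
Number of genes called lower (blue), not called (gray) and higher (red) at an adjusted p under 0.05 in limma, by role (rows), for each comparison (panels). The COPI row holds 6 lower genes and no higher one for NR4A1 CEAA against NR4A1 WT, and 4 higher and no lower one for NR4A1 WT against GFP.

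Among the 9 COPI coatomer genes, 4 were higher with NR4A1 WT than with GFP, and the count of lower genes was 0 in limma, also at an unadjusted p under 0.05. With NR4A1 CEAA, 1 was higher and 3 were lower than with GFP, and 6 were lower than with NR4A1 WT. The subunits did not move as a block. COPE, COPG1 and COPZ1 fell with the mutant, while COPB1 was higher with both forms and COPA and COPZ2 were called in no comparison.

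COPE, the epsilon subunit, known from hamster cells to stabilize the alpha subunit, had the largest change from GFP of any of the 38 genes. It read 9.25 and 9.31 in NR4A1 CEAA cells, 10.21, 10.41 and 10.33 in NR4A1 WT cells and 10.24, 10.23 and 10.37 in GFP cells. Both NR4A1 CEAA arrays lay well under the other 6, in which NR4A1 WT and GFP overlapped. For NR4A1 CEAA against GFP its log2 fold change was -1.0 (SE 0.08, adjusted p = 0.000413), a signal 0.501 times as high, and -1.03 (SE 0.08, adjusted p = 4.83e-05) against NR4A1 WT. For NR4A1 WT against GFP it was 0.04, with a 95% interval of -0.12 to 0.19. A second COPE probe set, dim at 5.16 to 5.68, did not differ beyond its error, and the mean of both probe sets gave -0.44 for NR4A1 CEAA against GFP (adjusted p = 0.00386).

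The gamma subunits, which bind cargo tails and ARF, come as a pair of paralogs, and the pair differed. COPG1 read 8.21 and 8.16 in NR4A1 CEAA cells, 8.94, 8.84 and 8.78 in NR4A1 WT cells and 8.66, 8.69 and 8.57 in GFP cells. The 3 groups did not overlap, with NR4A1 CEAA lowest and NR4A1 WT highest. COPG1 changed by a log2 fold change of -0.46 (SE 0.07, adjusted p = 0.00375) for NR4A1 CEAA against GFP, -0.67 (SE 0.07, adjusted p = 0.000202) against NR4A1 WT and 0.21 (SE 0.06, adjusted p = 0.0415) for NR4A1 WT against GFP. The last of these was lost without GFP replicate 1, 2 or 3 (adjusted p = 0.0958, 0.0645 and 0.137), NR4A1 WT replicate 1 or 2 (0.102 and 0.0738) or NR4A1 CEAA replicate 1 or 2 (0.0658 each). COPG2 read 8.18 and 8.36 in NR4A1 CEAA cells, 8.52, 8.69 and 8.56 in NR4A1 WT cells and 8.06, 8.22 and 8.17 in GFP cells. Here NR4A1 WT stood above the other groups, which overlapped. COPG2 had a log2 fold change of 0.44 (SE 0.07, adjusted p = 0.00384) for NR4A1 WT against GFP and -0.32 (SE 0.08, adjusted p = 0.019) for NR4A1 CEAA against NR4A1 WT, the second being lost without NR4A1 CEAA replicate 1 (adjusted p = 0.152). When 1 NR4A1 CEAA array was left out here or below, the other was assumed to vary like the other groups.

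The beta subunits rose with NR4A1 WT. COPB1 read 12.5 and 12.45 in NR4A1 CEAA cells, 12.57, 12.42 and 12.57 in NR4A1 WT cells and 12.26, 12.27 and 12.15 in GFP cells, so both forms of NR4A1 lay above GFP and overlapped each other. Its rise over GFP was 0.25 log2 units (SE 0.07, adjusted p = 0.0439) for NR4A1 CEAA and 0.29 (SE 0.06, adjusted p = 0.0122) for NR4A1 WT. A second COPB1 probe set moved alike, by 0.34 (SE 0.07, adjusted p = 0.0104 over all probe sets) and 0.39 (SE 0.06, adjusted p = 0.0027). For the followed probe set the NR4A1 CEAA call was lost without GFP replicate 1, 2 or 3 (adjusted p = 0.0797, 0.0754 and 0.126), NR4A1 WT replicate 1 or 3 (0.0501 and 0.0542) or NR4A1 CEAA replicate 1 or 2 (0.209 and 0.131). COPB2, the beta prime subunit, read 10.8 and 10.84 in NR4A1 CEAA cells, 11.02, 11.1 and 10.99 in NR4A1 WT cells and 10.79, 10.76 and 10.76 in GFP cells. Only NR4A1 WT stood apart. The other COPB2 probe set was dim, at a mean of 2.83. By the followed probe set, the log2 fold change of COPB2 was 0.27 (SE 0.05, adjusted p = 0.0066) for NR4A1 WT against GFP and -0.22 (SE 0.06, adjusted p = 0.0193) for NR4A1 CEAA against NR4A1 WT. The second call was lost without NR4A1 CEAA replicate 1 or 2 (adjusted p = 0.115 and 0.0687), and with the mean of the COPB2 probe sets the first was not called (adjusted p = 0.37).

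ARCN1 and COPZ1 encode the delta and zeta subunits. ARCN1 read 9.84 and 9.86 in NR4A1 CEAA cells, 10.11, 10.09 and 10.05 in NR4A1 WT cells and 9.9, 9.9 and 9.99 in GFP cells, which lay between the others without overlap. It was called only for NR4A1 CEAA against NR4A1 WT, at -0.23 (SE 0.06, adjusted p = 0.015), and was lost without NR4A1 CEAA replicate 1 or 2 (adjusted p = 0.0875 and 0.0674). COPZ1 read 9.42 and 9.42 in NR4A1 CEAA cells, 9.75, 9.81 and 9.83 in NR4A1 WT cells and 9.71, 9.77 and 9.8 in GFP cells. The mutant arrays lay apart from the 6 others. COPZ1 changed by -0.34 log2 units (SE 0.06, adjusted p = 0.0057) against GFP and -0.38 (SE 0.06, adjusted p = 0.00133) against NR4A1 WT. A second COPZ1 probe set fell too, by 0.71 on the log2 scale against GFP (SE 0.1, adjusted p = 0.00247 over all probe sets).

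**Figure D2:**
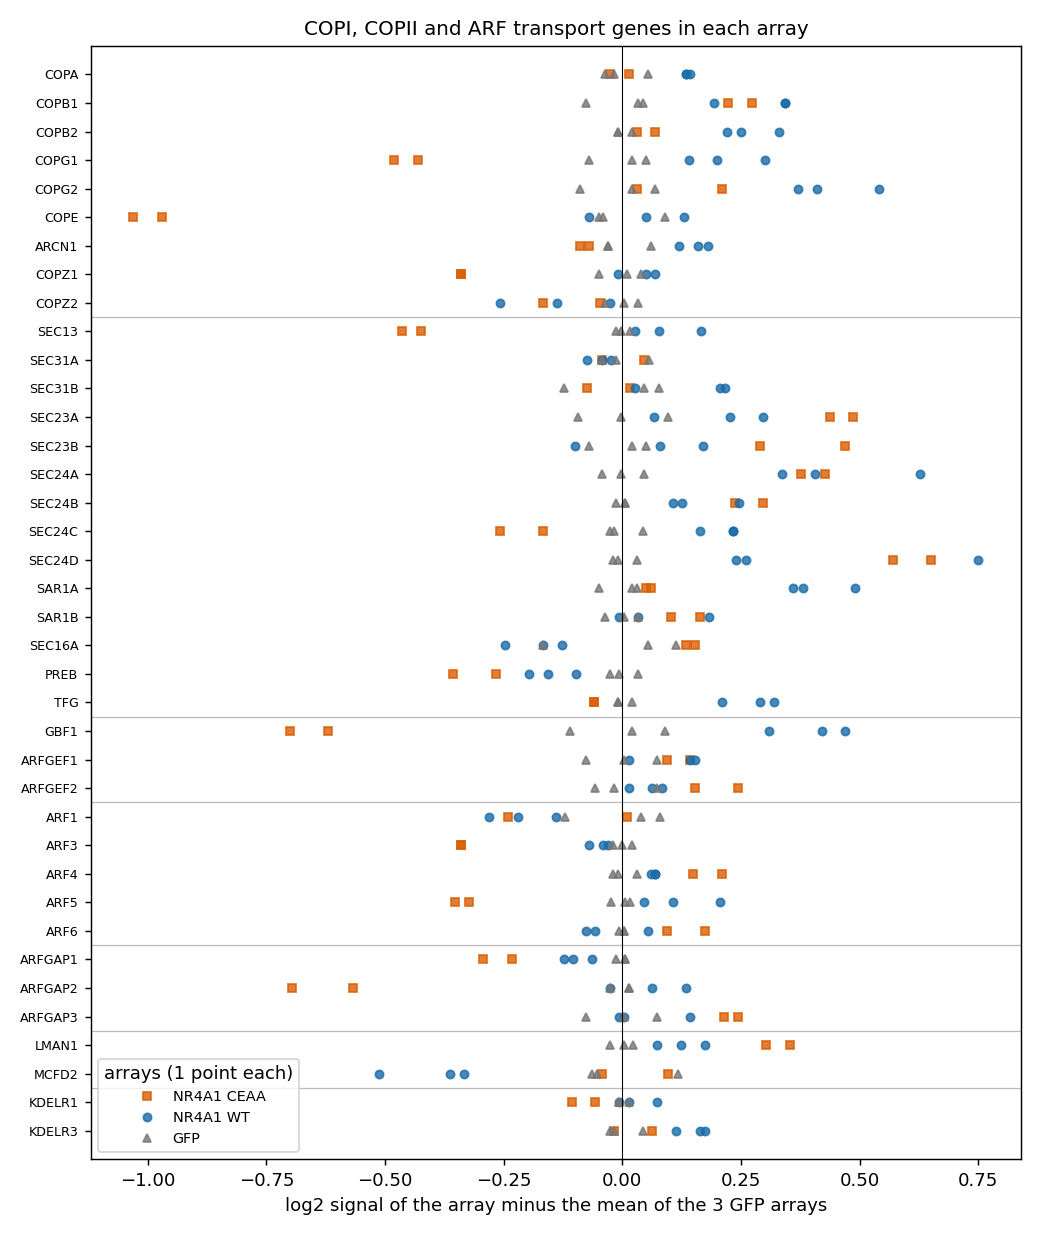
Log2 signal of each gene (rows, lines separate the roles) in each array minus the mean of the 3 GFP arrays (x axis): orange squares, NR4A1 CEAA; blue circles, NR4A1 WT; gray triangles, GFP. The NR4A1 CEAA arrays of COPE (9.25 and 9.31) lie farthest to the left, followed by those of GBF1 (6.28 and 6.36) and ARFGAP2 (8.75 and 8.62), and COPG2 and SAR1A are highest in NR4A1 WT.

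COPII genes went in both directions with the mutant. Among the 14 genes of the COPII coat and its assembly, NR4A1 CEAA had 5 higher and 3 lower than GFP and 3 higher and 4 lower than NR4A1 WT. NR4A1 WT had 4 higher than GFP, and 0 lower in limma (2 at an unadjusted p under 0.05). The higher genes with NR4A1 CEAA were the inner layer genes SEC23A, SEC23B, SEC24A, SEC24B and SEC24D, while SEC24C, the outer cage subunit SEC13 and PREB fell.

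SEC23 activates the GTPase SAR1 from within the coat. SEC23A read 9.8 and 9.75 in NR4A1 CEAA cells, 9.61, 9.38 and 9.54 in NR4A1 WT cells and 9.41, 9.31 and 9.22 in GFP cells. The mutant arrays were highest, and NR4A1 WT overlapped GFP. It rose by 0.47 log2 units (SE 0.09, adjusted p = 0.00825) for NR4A1 CEAA against GFP, lost without NR4A1 CEAA replicate 1 (adjusted p = 0.0706), and 0.27 (SE 0.09, adjusted p = 0.0435) against NR4A1 WT, lost without GFP replicate 2 (0.0666), NR4A1 WT replicate 2 or 3 (0.0942 and 0.0703) or NR4A1 CEAA replicate 1 or 2 (0.197 and 0.12). SEC23B read 10.26 and 10.08 in NR4A1 CEAA cells, 9.96, 9.69 and 9.87 in NR4A1 WT cells and 9.84, 9.81 and 9.72 in GFP cells. SEC23B was higher by 0.38 log2 units (SE 0.09, adjusted p = 0.0246) for NR4A1 CEAA against GFP and 0.33 (SE 0.09, adjusted p = 0.0278) against NR4A1 WT. Neither call was stable, and with the mean of the SEC23B probe sets the value against GFP was 0.09 (adjusted p = 0.371) and that against NR4A1 WT turned to -0.18. The first was lost without GFP replicate 2 or 3 (adjusted p = 0.0595 and 0.0775) or NR4A1 CEAA replicate 1 or 2 (0.175 and 0.051), and the second without NR4A1 WT replicate 2 or 3 (0.0586 and 0.0501) or NR4A1 CEAA replicate 1 (0.199).

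SEC24 paralogs, which select cargo, differed among themselves. SEC24A read 8.34 and 8.39 in NR4A1 CEAA cells, 8.59, 8.37 and 8.3 in NR4A1 WT cells and 8.01, 7.96 and 7.92 in GFP cells, so both forms of NR4A1 lay above GFP and overlapped each other. Its log2 fold change from GFP was 0.40 (SE 0.09, adjusted p = 0.0154) for NR4A1 CEAA and 0.45 (SE 0.08, adjusted p = 0.00411) for NR4A1 WT, and the first was lost without GFP replicate 3 (adjusted p = 0.0526) or NR4A1 CEAA replicate 1 or 2 (0.0812 and 0.096). SEC24B read 9.83 and 9.89 in NR4A1 CEAA cells, 9.84, 9.72 and 9.7 in NR4A1 WT cells and 9.6, 9.58 and 9.6 in GFP cells, below both forms of NR4A1. The NR4A1 CEAA call against GFP, 0.27 (SE 0.06, adjusted p = 0.0188), was lost without GFP replicate 1, 2 or 3 (adjusted p = 0.0538, 0.0562 and 0.0554) or NR4A1 CEAA replicate 1 or 2 (0.0747 and 0.123). SEC24D read 7.64 and 7.72 in NR4A1 CEAA cells, 7.82, 7.33 and 7.31 in NR4A1 WT cells and 7.05, 7.1 and 7.06 in GFP cells. NR4A1 WT replicate 1 stood above its group and above both mutant arrays. SEC24D was higher by 0.61 log2 units (SE 0.14, adjusted p = 0.0205) for NR4A1 CEAA against GFP, lost without GFP replicate 1 or 3 (adjusted p = 0.0577 and 0.0594) or NR4A1 CEAA replicate 1 or 2 (0.095 and 0.12), and 0.42 (SE 0.13, adjusted p = 0.0545) for NR4A1 WT against GFP. With the mean of a gene's probe sets, the NR4A1 CEAA calls against GFP were lost for SEC24A (0.26, adjusted p = 0.109) and SEC24D (0.16, adjusted p = 0.144). The probe sets averaged in were dimmer than the followed ones, at means of 6.04 and 4.18 for SEC24A and 3.44 and 3.18 for SEC24D.

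SEC24C ran the other way. It read 9.51 and 9.42 in NR4A1 CEAA cells, 9.84, 9.91 and 9.91 in NR4A1 WT cells and 9.66, 9.72 and 9.65 in GFP cells, with no overlap between the 3 groups. The log2 fold change was -0.42 (SE 0.06, adjusted p = 0.000914) for NR4A1 CEAA against NR4A1 WT, a call that held without any 1 array. Against GFP it was -0.21 (SE 0.06, adjusted p = 0.0416) for NR4A1 CEAA and 0.21 (SE 0.05, adjusted p = 0.022) for NR4A1 WT. The NR4A1 CEAA call was lost without GFP replicate 1, 2 or 3 (adjusted p = 0.0883, 0.116 and 0.0848), NR4A1 WT replicate 3 (0.0568) or NR4A1 CEAA replicate 1 or 2 (0.0904 and 0.235), and the NR4A1 WT call without GFP replicate 1 or 3 (0.0776 and 0.0784) or NR4A1 WT replicate 2 or 3 (0.0579 and 0.0633).

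SEC13, which pairs with SEC31 in the outer cage and is also a nuclear pore subunit, read 10.76 and 10.72 in NR4A1 CEAA cells, 11.21, 11.35 and 11.26 in NR4A1 WT cells and 11.2, 11.17 and 11.18 in GFP cells. Both mutant arrays were under all others. It fell by 0.45 on the log2 scale against GFP (SE 0.06, adjusted p = 0.00261) and by 0.54 against NR4A1 WT (SE 0.06, adjusted p = 0.00032). Its partner SEC31A stayed between 10.13 and 10.26 in all 8 arrays, with a log2 fold change of 0.01 for NR4A1 CEAA against GFP (95% interval -0.13 to 0.14). The difference between SEC13 and SEC31A was not tested.

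SAR1A, the GTPase that starts the coat, read 10.92 and 10.91 in NR4A1 CEAA cells, 11.35, 11.24 and 11.22 in NR4A1 WT cells and 10.88, 10.89 and 10.81 in GFP cells. NR4A1 WT stood above both other groups. SAR1A had a log2 fold change of 0.41 (SE 0.05, adjusted p = 0.00118) for NR4A1 WT against GFP and -0.35 (SE 0.06, adjusted p = 0.00276) for NR4A1 CEAA against NR4A1 WT. The other SAR1A probe sets in use rose with NR4A1 WT as well, by 0.51 (SE 0.07, adjusted p = 0.00118 over all probe sets) and 0.33 (SE 0.09, adjusted p = 0.0406). PREB, its exchange factor, read 9.07 and 9.16 in NR4A1 CEAA cells, 9.23, 9.33 and 9.27 in NR4A1 WT cells and 9.42, 9.4 and 9.46 in GFP cells. It was lower with NR4A1 CEAA than with GFP by a log2 fold change of -0.31 (SE 0.06, adjusted p = 0.00886), a call lost without NR4A1 CEAA replicate 1 (adjusted p = 0.0816). For NR4A1 WT against GFP the value was -0.15 (95% interval -0.27 to -0.03, adjusted p = 0.0842).

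TFG and SEC16A organize ER exit sites. TFG read 9.68 and 9.68 in NR4A1 CEAA cells, 9.95, 10.06 and 10.03 in NR4A1 WT cells and 9.73, 9.73 and 9.76 in GFP cells. NR4A1 WT lay above both other groups. TFG had a log2 fold change of 0.28 (SE 0.05, adjusted p = 0.0053) for NR4A1 WT against GFP and -0.33 (SE 0.06, adjusted p = 0.00235) for NR4A1 CEAA against NR4A1 WT. With the mean of all TFG probe sets, the rise with NR4A1 WT was not called (adjusted p = 0.527) and the value against NR4A1 WT turned to 0.058. The other TFG probe sets were dim, averaging 4.68, 3.37 and 2.93, and were called in no comparison. SEC16A read 9.31 and 9.33 in NR4A1 CEAA cells, 8.93, 9.01 and 9.05 in NR4A1 WT cells and 9.01, 9.29 and 9.23 in GFP cells. Its level was higher with NR4A1 CEAA than with NR4A1 WT, by 0.33 (SE 0.09, adjusted p = 0.0217), and GFP overlapped NR4A1 WT. That call was lost without NR4A1 WT replicate 1 (adjusted p = 0.0574) or NR4A1 CEAA replicate 1 or 2 (0.0915 and 0.109).

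Promoter sequence was looked at for the genes that carry this pattern. The RefSeq table (GRCh38.p14) held a promoter for 34 of the 38 genes, and the 250 bases before the start were searched on both strands. The NR4A response element NBRE (AAAGGTCA) was in 0 of the 34, against 0.793% of 15384 promoters of the genes measured. The letters of a strong ETS factor site (CCGGAAGT) were in 6 of them (COPA, SEC13, SEC24A, SEC24C, SAR1A and TFG), against 5.13% of all. Of the 9 genes higher with NR4A1 WT than with GFP, these letters were in 4 (SEC24A, SEC24C, SAR1A and TFG, all of COPII) and not in the other 5 (COPG2, GBF1, COPB1, COPB2 and COPG1). In the following stretches of 80 bases the ETS letters are in capitals, and in SEC24C they lie on the other strand (ACTTCCGG):
SEC24A, chr5:134648705-134648784, plus strand: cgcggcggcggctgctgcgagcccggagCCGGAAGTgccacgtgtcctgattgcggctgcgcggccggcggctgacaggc
SEC24C, chr10:73744292-73744371, plus strand: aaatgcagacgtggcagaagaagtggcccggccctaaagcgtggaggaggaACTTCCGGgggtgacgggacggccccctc
SAR1A, chr10:70170515-70170594, minus strand: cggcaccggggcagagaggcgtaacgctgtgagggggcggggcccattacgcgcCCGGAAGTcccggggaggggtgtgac
TFG, chr3:100709210-100709289, plus strand: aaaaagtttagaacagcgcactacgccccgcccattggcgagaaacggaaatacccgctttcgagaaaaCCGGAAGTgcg
SEC13, chr3:10321113-10321192, minus strand: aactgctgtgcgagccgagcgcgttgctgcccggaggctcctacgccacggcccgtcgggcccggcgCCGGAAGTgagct
COPA, chr1:160343251-160343330, minus strand: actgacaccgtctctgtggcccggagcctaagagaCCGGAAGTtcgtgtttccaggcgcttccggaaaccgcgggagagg

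The same letters stood in the promoters of genes that fell and of a gene that was not called, SEC13 and COPA. Over all genes they were in 7.73% of promoters of genes higher with NR4A1 WT than with GFP, 5.26% of those lower and 4.76% of those not called. With NR4A1 CEAA against GFP they were in 6.56% of those higher, 9.5% of those lower and 4.27% of those not called. Promoters of the 34 genes had a median GC content of 67.0%, against 62.4% over all, and the part of base composition in these shares was not tested. The core of the cAMP response element (TGACGT) was in 7 of the 34 (ARF1, ARF5, COPB1, COPB2, KDELR3, SEC13 and SEC24A), against 8.91% of all. The ER stress response element (ERSE) was in 0 of the 34, against 0.104% of all. A match is only a run of letters, and its absence says only that they are not in this window.

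GBF1, the exchange factor that loads ARFs at the early Golgi and so starts the COPI coat, separated all 3 groups. It read 6.28 and 6.36 in NR4A1 CEAA cells, 7.29, 7.45 and 7.4 in NR4A1 WT cells and 6.87, 7.07 and 7.0 in GFP cells. NR4A1 CEAA was lowest, NR4A1 WT highest, and no arrays overlapped. The log2 fold change was -0.66 (SE 0.08, adjusted p = 0.00179) for NR4A1 CEAA against GFP, 0.41 (SE 0.07, adjusted p = 0.0045) for NR4A1 WT against GFP and -1.06 (SE 0.08, adjusted p = 4.83e-05) for NR4A1 CEAA against NR4A1 WT. The last is a signal 0.479 times as high and was the largest change among the 38 genes. GBF1 had only 1 probe set in use. All of these calls held without any 1 array. ARFGEF1 and ARFGEF2, exchange factors of the trans-Golgi, were not called, with log2 fold changes for NR4A1 CEAA against NR4A1 WT of 0.01 (95% interval -0.15 to 0.18) and 0.15 (adjusted p = 0.127). A second ARFGEF2 probe set was higher with NR4A1 CEAA, by 0.47 against GFP and 0.53 against NR4A1 WT (adjusted p = 0.0118 and 0.00328 over all probe sets). The remaining ARFGEF2 probe sets, which were dim, were not called. With the mean of its probe sets ARFGEF2 was called in both of these comparisons.

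ARF GTPases recruit COPI and other coats when bound to GTP. Of the 5, NR4A1 CEAA had 1 higher and 2 lower than GFP, and 2 lower than NR4A1 WT. ARF3 read 10.36 and 10.36 in NR4A1 CEAA cells, 10.66, 10.63 and 10.67 in NR4A1 WT cells and 10.7, 10.68 and 10.72 in GFP cells. It fell with the mutant by 0.34 on the log2 scale against GFP (SE 0.05, adjusted p = 0.00373) and by 0.29 against NR4A1 WT (SE 0.05, adjusted p = 0.00272). Its other probe sets fell likewise, by 0.39 (SE 0.07, adjusted p = 0.00679 over all probe sets) and 0.45 (SE 0.12, adjusted p = 0.0345) against GFP. ARF5 read 9.37 and 9.34 in NR4A1 CEAA cells, 9.74, 9.9 and 9.8 in NR4A1 WT cells and 9.7, 9.67 and 9.71 in GFP cells, the mutant again below all others. The log2 fold change was -0.46 (SE 0.06, adjusted p = 0.000729) against NR4A1 WT and -0.34 (SE 0.06, adjusted p = 0.00766) against GFP, the second being lost without NR4A1 CEAA replicate 1 or 2 (adjusted p = 0.0512 and 0.0583). ARF4, which shares Golgi roles with the others, read 11.81 and 11.75 in NR4A1 CEAA cells, 11.67, 11.67 and 11.66 in NR4A1 WT cells and 11.63, 11.58 and 11.59 in GFP cells. Its difference from GFP of 0.18 (SE 0.05, adjusted p = 0.0483) was lost on leaving out any of the arrays: GFP replicates 1, 2 and 3 (adjusted p = 0.0919, 0.122 and 0.123), NR4A1 WT replicates 1, 2 and 3 (0.0558, 0.0546 and 0.0658) and NR4A1 CEAA replicates 1 and 2 (0.244 and 0.111). A second ARF4 probe set was lower with NR4A1 CEAA than with GFP, at -0.26 (SE 0.06, adjusted p = 0.0195 over all probe sets). ARF1 was followed by a single probe set (6.46 to 6.82, within the range of GBF1), since its others are listed with a second gene, and it was not called.

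ARF GTPase activating proteins make ARF turn GTP over, and ARFGAP2 rides on the COPI coat. ARFGAP2 read 8.75 and 8.62 in NR4A1 CEAA cells, 9.29, 9.45 and 9.38 in NR4A1 WT cells and 9.29, 9.33 and 9.33 in GFP cells. NR4A1 WT and GFP overlapped, and both mutant arrays lay below them. ARFGAP2 had a log2 fold change of -0.63 (SE 0.07, adjusted p = 0.00132) for NR4A1 CEAA against GFP and -0.69 (SE 0.07, adjusted p = 0.000191) against NR4A1 WT, and a dim second probe set (4.82 to 5.11) did not differ beyond its error. The mean of both gave -0.35 against GFP (adjusted p = 0.00629). ARFGAP1 read 8.18 and 8.12 in NR4A1 CEAA cells, 8.35, 8.31 and 8.29 in NR4A1 WT cells and 8.4, 8.42 and 8.42 in GFP cells. Its log2 fold change was -0.26 for NR4A1 CEAA against GFP (SE 0.05, adjusted p = 0.0114), lost without NR4A1 CEAA replicate 1 or 2 (adjusted p = 0.0555 and 0.0835). Against NR4A1 WT, its value of -0.16 (SE 0.05, adjusted p = 0.0443) was lost on leaving out any of the arrays: GFP replicates 1, 2 and 3 (adjusted p = 0.0728, 0.0709 and 0.0711), NR4A1 WT replicates 1, 2 and 3 (0.0875, 0.07 and 0.063) and NR4A1 CEAA replicates 1 and 2 (0.0978 and 0.219). ARFGAP3, also a COPI partner, leaned the other way without being called, at 0.23 for NR4A1 CEAA against GFP (95% interval 0.07 to 0.39, adjusted p = 0.0553).

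**Figure D3:**
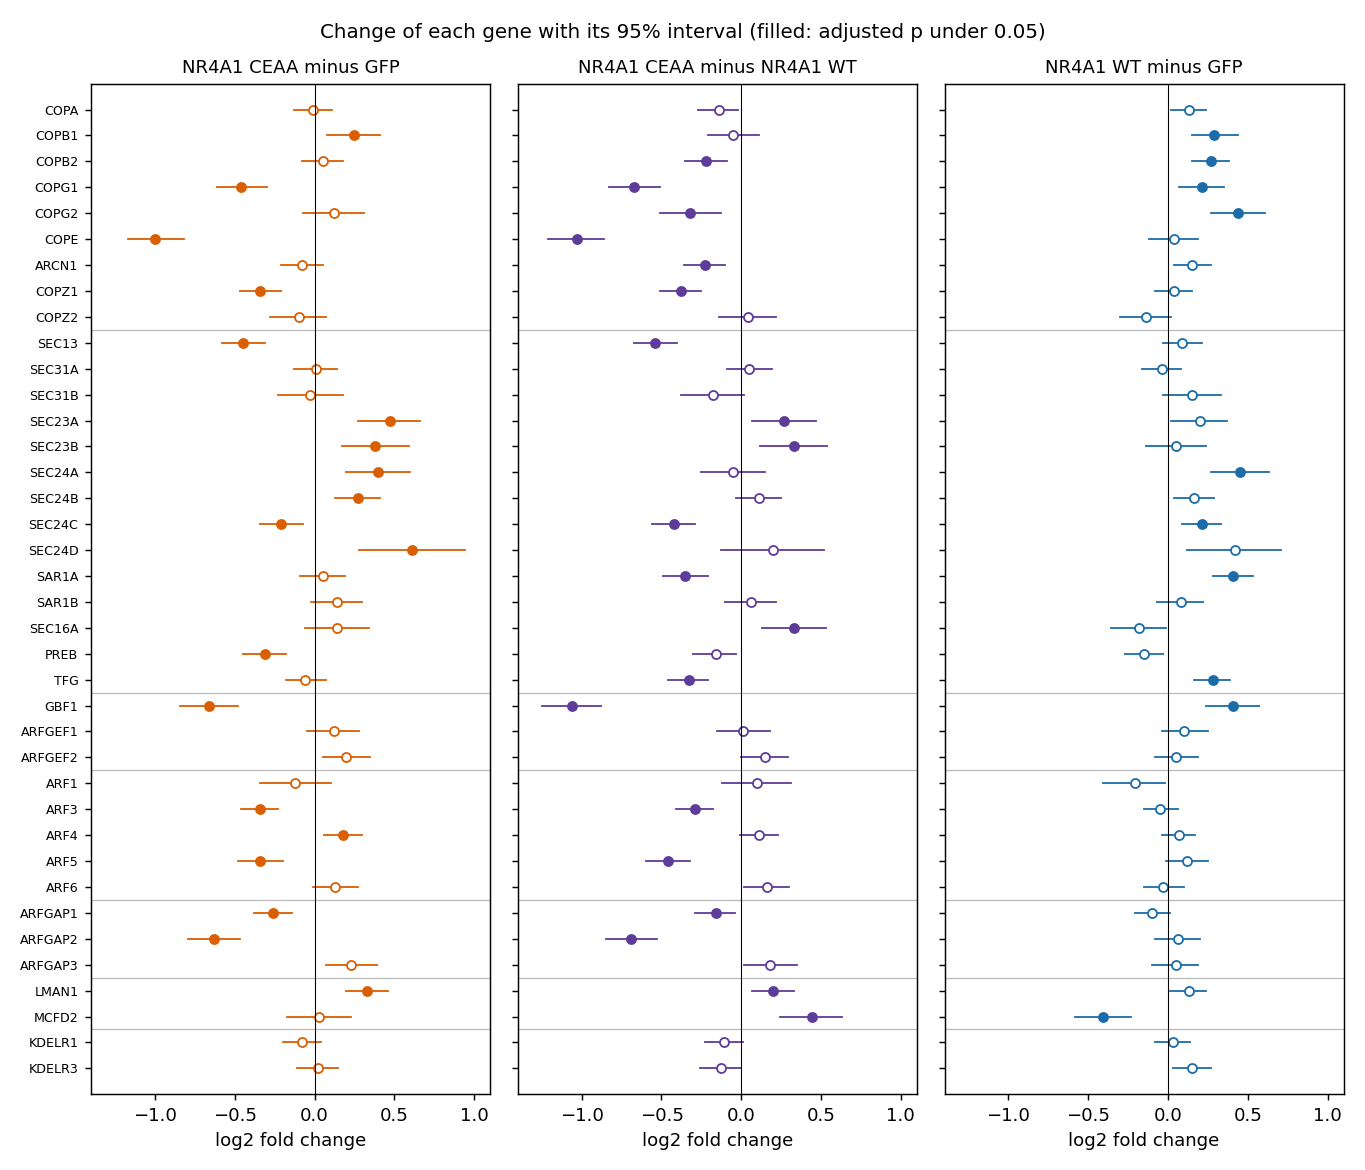
Log2 fold change (x axis) of each gene (rows, by role) with its 95% interval in the 3 comparisons (panels), filled where the adjusted p was under 0.05 in limma. GBF1 and COPE reach -1.06 and -1.03 for NR4A1 CEAA against NR4A1 WT, while SEC31A and COPZ2 stay near 0 in that panel.

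LMAN1 (ERGIC-53) and MCFD2 form a cargo receptor that carries glycoproteins such as coagulation factors out of the ER. LMAN1 read 12.3 and 12.25 in NR4A1 CEAA cells, 12.07, 12.02 and 12.12 in NR4A1 WT cells and 11.95, 11.97 and 11.92 in GFP cells. It was higher with NR4A1 CEAA, by 0.33 (SE 0.06, adjusted p = 0.00648) against GFP and 0.20 (SE 0.06, adjusted p = 0.0261) against NR4A1 WT. The first was lost without NR4A1 CEAA replicate 1 (adjusted p = 0.0609) and the second without NR4A1 WT replicate 2 (0.0608) or NR4A1 CEAA replicate 1 or 2 (0.149 and 0.0752). MCFD2 read 10.42 and 10.28 in NR4A1 CEAA cells, 9.99, 9.81 and 9.96 in NR4A1 WT cells and 10.44, 10.26 and 10.27 in GFP cells. NR4A1 WT lay below both other groups, which overlapped. Its log2 fold change was -0.41 (SE 0.08, adjusted p = 0.00706) for NR4A1 WT against GFP and 0.44 (SE 0.09, adjusted p = 0.0056) for NR4A1 CEAA against NR4A1 WT, the second being lost without NR4A1 CEAA replicate 1 (adjusted p = 0.057). By the mean of its probe sets MCFD2 was not called for NR4A1 WT against GFP (adjusted p = 0.142). Of the other MCFD2 probe sets, the brighter (mean 9.35) gave -0.10 there, and the last was dim (mean 3.47). KDEL receptors return ER proteins in COPI vesicles. By their followed probe sets, KDELR1 (11.16 to 11.34) and KDELR3 (5.13 to 5.33) were called in no comparison.

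In all, 26 of the 38 genes were called in at least 1 comparison and 12 in none: COPA, COPZ2, SEC31A, SEC31B, SAR1B, ARFGEF1, ARFGEF2, ARF1, ARF6, ARFGAP3, KDELR1 and KDELR3. Their log2 fold changes ran from -0.21 to 0.15 for NR4A1 WT against GFP, from -0.12 to 0.23 for NR4A1 CEAA against GFP and from -0.18 to 0.18 for NR4A1 CEAA against NR4A1 WT. Calls were common over all genes too, at 20.3%, 19.2% and 31.5% in these comparisons, in the same order. The share of all genes called in at least 1 comparison, or with calls that held without any 1 array, was not counted. COPG1, SEC24C and GBF1 were called in all 3 comparisons, each lowest with NR4A1 CEAA and highest with NR4A1 WT. Of the calls, 8 of 10 for NR4A1 WT against GFP, 7 of 19 for NR4A1 CEAA against GFP and 11 of 20 for NR4A1 CEAA against NR4A1 WT held whichever array was left out. The 7 were COPG1, COPE, COPZ1, SEC13, GBF1, ARF3 and ARFGAP2, all lower, so no gene called higher with NR4A1 CEAA than with GFP held in every such fit.

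Probe sets of a gene read different parts of its transcripts, and after NR4A1 CEAA some of them parted. ARF6, which acts at the plasma membrane, was not called by its brightest probe set (0.13 against GFP), yet another probe set read 7.84 and 7.95 in NR4A1 CEAA cells, 8.78, 8.89 and 8.91 in NR4A1 WT cells and 8.88, 8.88 and 8.97 in GFP cells. That is a log2 fold change from GFP of -1.02 (SE 0.07, adjusted p = 0.000243 over all probe sets), while the remaining ARF6 probe sets gave -0.06 and -0.26. SAR1B had probe sets called in opposite directions against GFP, at 0.29 (SE 0.07, adjusted p = 0.0222) and -0.57 (SE 0.07, adjusted p = 0.00212). For SEC23B the brightest probe set was higher with NR4A1 CEAA than with NR4A1 WT, by 0.33, and the others were lower, at -0.56 (SE 0.07, adjusted p = 0.000737) and -0.32 (SE 0.1, adjusted p = 0.0452). Those SEC23B probe sets also rose with NR4A1 WT against GFP, by 0.35 and 0.43, where the brightest gave 0.05. For NR4A1 CEAA against GFP, the probe sets of ARF4 (0.18 and -0.26) and MCFD2 (0.03 and -0.30) differed in sign. Adjusted over all probe sets, only the lower one of each was called (adjusted p = 0.0195 and 0.029). The followed ARF4 probe set, called higher over genes (adjusted p = 0.0483), was not called over all probe sets (adjusted p = 0.0881). The KDELR1 probe sets (-0.08 and -0.44) differed in size, and only the second, at a mean of 8, was called (adjusted p = 0.00382). That probe set was also called against NR4A1 WT, at -0.34 (adjusted p = 0.00619). With the mean of a gene's probe sets, ARF6 and KDELR1 were called in both NR4A1 CEAA comparisons. LMAN1 was higher by each probe set above the array medians, at 0.33 and 1.01. Among the called genes, COPG1, ARCN1, SEC13, SEC24B, SEC24C, SEC16A, PREB, GBF1 and ARF5 had 1 probe set in use. For them no second probe set could be compared.

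Over all 10523 genes with several probe sets in use, opposite calls within a gene were made for 18 (0.171%) in NR4A1 WT against GFP, 181 (1.72%) in NR4A1 CEAA against GFP and 485 (4.61%) in NR4A1 CEAA against NR4A1 WT. Of the 26 such genes here, adjusted over all probe sets, opposite calls were made for SAR1B in both NR4A1 CEAA comparisons. They were also made for SEC23B in the one with NR4A1 WT. The positions of these probe sets on transcripts were not used here.

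**Figure D4:**
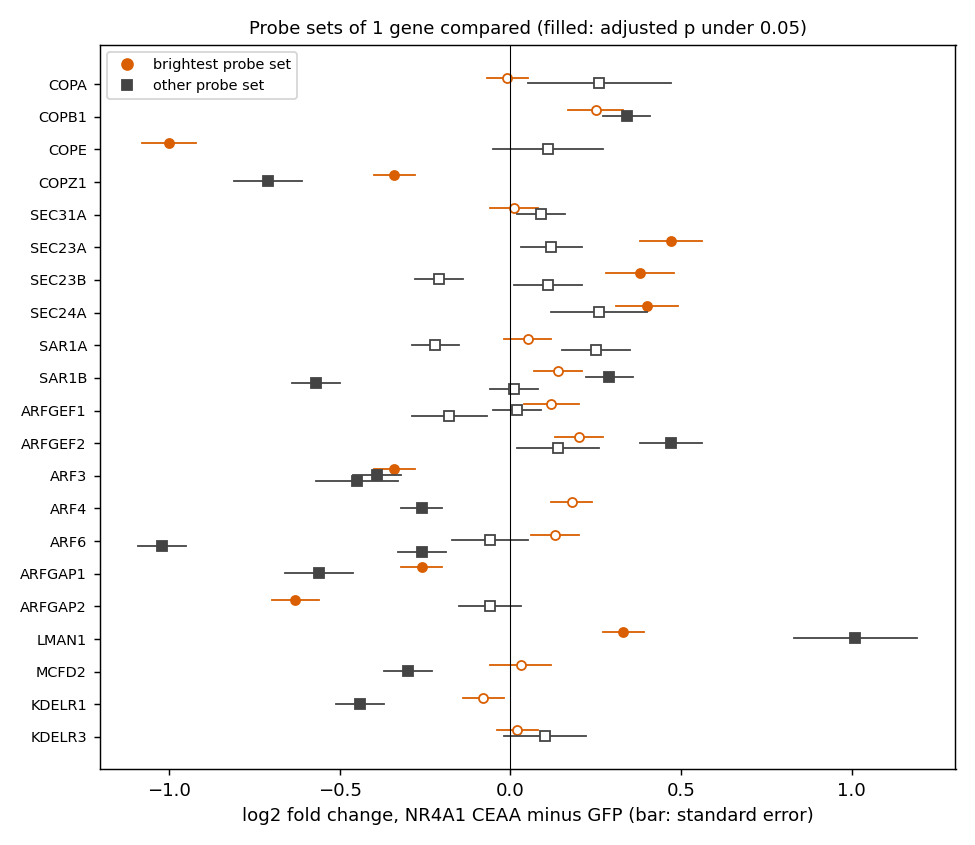
Log2 fold change of NR4A1 CEAA against GFP (x axis, bars are standard errors) for the 21 genes with several probe sets whose means lay above every array median (rows): orange circles, brightest probe set; dark squares, others; filled where the adjusted p over all probe sets was under 0.05. ARF6 spans 0.13 to -1.02 and SAR1B spans 0.29 to -0.57, while the ARF3 probe sets lie together at -0.34 to -0.45.

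Neighboring steps of the pathway were counted from lists of other genes written from general knowledge, read against the shares of all genes given above. Of 51 tethers and SNAREs, which dock and fuse these vesicles, 10 were higher and 11 lower with NR4A1 CEAA than with GFP, 14 higher and 1 lower with NR4A1 WT than with GFP, and 4 higher and 23 lower with NR4A1 CEAA than with NR4A1 WT. Their median log2 fold changes were -0.05, 0.11 and -0.17 in these comparisons, in the same order. NSF, the ATPase that takes SNAREs apart, averaged 9.91 ± 0.08 in NR4A1 CEAA cells and 10.97 ± 0.08 in NR4A1 WT cells (SD, n = 2 and 3), a log2 fold change of -1.06 (SE 0.07, adjusted p = 2.68e-05), and it was higher by 0.89 with NR4A1 WT than with GFP (SE 0.06, adjusted p = 3.87e-05). RINT1 and GCC2, both tethers, were higher with NR4A1 WT as well, by 0.94 and 0.73 (adjusted p = 0.00013 and 6.06e-05). With NR4A1 CEAA against GFP, NAPA, the partner of NSF, was at -0.86 and the SNARE YKT6 at -0.74 (adjusted p = 0.0016 and 5e-04), and COG6, a Golgi tether subunit, was at 0.66 (adjusted p = 0.00106). TRAPPC1, of the TRAPP tether, was at -0.66 for NR4A1 CEAA against NR4A1 WT (adjusted p = 0.000989), the only difference named here that did not pass Rank Product (q = 0.126).

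Of 31 other cargo receptors and p24 proteins, 5 were higher and 8 lower with NR4A1 CEAA than with GFP, 7 higher and 3 lower with NR4A1 WT than with GFP, and 7 higher and 13 lower with NR4A1 CEAA than with NR4A1 WT, with medians of -0.06, 0.03 and -0.12. ERGIC3, which cycles between ER and Golgi, averaged 9.79 ± 0.05 in NR4A1 CEAA cells, 10.83 ± 0.06 in NR4A1 WT cells and 10.74 ± 0.08 in GFP cells (SD, n = 2, 3 and 3), with a log2 fold change from GFP of -0.95 (SE 0.07, adjusted p = 0.000311). BCAP31 and YIF1B were lower with NR4A1 CEAA than with GFP too, at -0.71 and -0.60 (adjusted p = 0.000909 and 0.00336). TMED8 was higher with NR4A1 WT than with GFP by 0.99 and lower with NR4A1 CEAA than with NR4A1 WT by a log2 fold change of -0.94 (adjusted p = 1.13e-05 and 2.69e-05). BCAP29 was at 0.35 and TMED6 at -0.36 for NR4A1 WT against GFP (adjusted p = 0.00795 and 0.0268). YIF1B, BCAP29 and TMED6 did not pass Rank Product (q = 0.0528, 0.385 and 0.316).

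Of 53 genes of clathrin and other ARF-linked coats and ARF partners, 2 were higher and 12 lower with NR4A1 CEAA than with GFP, 7 higher and 6 lower with NR4A1 WT than with GFP, and 5 higher and 15 lower with NR4A1 CEAA than with NR4A1 WT, with medians of -0.08, 0.03 and -0.10. CYTH1, an ARF exchange factor of the cytohesin family, averaged 7.99 ± 0.07 in NR4A1 CEAA cells, 9.3 ± 0.03 in NR4A1 WT cells and 8 ± 0.08 in GFP cells (SD, n = 2, 3 and 3), a log2 fold change of 1.30 for NR4A1 WT against GFP (SE 0.06, adjusted p = 4.28e-06). Its relative CYTH2 was at -0.77 for NR4A1 CEAA against GFP and -1.14 against NR4A1 WT (adjusted p = 0.000662 and 1.87e-05). PSD3 and ARAP3, an exchange factor and an activating protein for ARF, were at -1.05 and -0.90 for NR4A1 WT against GFP (adjusted p = 0.00116 and 0.00494). For NR4A1 CEAA against GFP, AP4M1, of the AP-4 adaptor, and the clathrin light chain gene CLTB were at -0.53 and -0.46 (adjusted p = 0.0118 and 0.0016), and neither passed Rank Product (q = 0.102 and 0.197).

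Of 43 genes of the unfolded protein response and of protein entry into the ER, 2 were higher and 10 lower with NR4A1 CEAA than with GFP, 4 higher and 3 lower with NR4A1 WT than with GFP, and 6 higher and 13 lower with NR4A1 CEAA than with NR4A1 WT, with medians of -0.03, -0.01 and -0.06. XBP1, a transcription factor of that response, averaged 11.18 ± 0.04 in NR4A1 CEAA cells, 10.48 ± 0.12 in NR4A1 WT cells and 10.96 ± 0.02 in GFP cells (SD, n = 2, 3 and 3). Its log2 fold change was -0.48 for NR4A1 WT against GFP and 0.70 for NR4A1 CEAA against NR4A1 WT (adjusted p = 0.00129 and 0.000231). CREB3L2, a transcription factor known in mouse cartilage cells to raise COPII genes, was higher with NR4A1 WT than with GFP by 0.53, and SRPRB, of the receptor for new secretory proteins, was at -0.51 (adjusted p = 0.000409 and 0.000171). With NR4A1 CEAA against GFP, SSR2, of the ER translocon, and the transcription factors CREB3 and CREB3L4 were at -0.52, -0.51 and -0.36 (adjusted p = 0.00116, 0.0058 and 0.0108). In Rank Product the count of these 43 genes was 0 in every comparison, beside the Rank Product counts of all genes given above.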

How the data were processed

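RNA of 8 arrays was measured. The authors deposited log2 probe set intensities made by Robust Multiarray Analysis (RMA), which corrects background, quantile normalizes the arrays and summarizes each probe set. Its version is not given in the sources used here. Quantile normalization fixes each array's distribution, so changes are relative to the other genes. The table held 54613 probe sets. The 41091 that name a single gene were used (1801 name more and 11721 name no gene), and the one brightest on average over the arrays stood for its gene. The 3 groups were fitted together with limma 3.58.1 in R 4.3.3 (lmFit, eBayes) on 19775 genes, with Benjamini-Hochberg adjustment over all of them and no filter on dim values, and all probe sets were fitted in the same way. The fit was also run on simulated arrays with independent noise and a small set of changed genes. That setting is unlike these arrays and cannot check the calls made here. Genes called in at least 1 comparison are given with every array. From the pathway lists, up to 3 genes a comparison are named, the largest called changes without overlap between groups. The genes, lists and tests were chosen with earlier results of these data known.

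Alternatives were Rank Product (100 permutations, q of at most 0.05), an intensity trend, array weights, removal of dim genes (13180 kept), a fit of only the groups compared, a second quantile normalization, the replicate number as a block, the mean of a gene's probe sets, adjustment over all probe sets, and leaving out each array. Promoters came from RefSeq (GRCh38.p14).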

Additional observations from a re-analysis of the deposited data

How the results depend on the processing

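Counts of called genes depended most on the test. Rank Product gave 0 higher and 0 lower for NR4A1 WT against GFP (limma gave 9 and 1), 0 and 3 for NR4A1 CEAA against GFP, and 0 and 2 for NR4A1 CEAA against NR4A1 WT. For NR4A1 WT against GFP, an intensity trend gave 15 higher and 3 lower (2452 and 2509 of all 19775 genes). The filter on dim probe sets, which kept all 38, gave 14 and 2 (2268 and 2382 of the 13180 kept). For NR4A1 CEAA against GFP that filter gave 10 higher and 11 lower (1849 and 2863 of those kept). For NR4A1 CEAA against NR4A1 WT it gave 7 higher and 17 lower (2837 and 3714 of those kept). The mean of a gene's probe sets gave 0 lower (1855 of all genes) and a median of 0.053 for NR4A1 WT against GFP. It gave a median of -0.021 for NR4A1 CEAA against GFP, and 3 higher (2495 of all genes) for NR4A1 CEAA against NR4A1 WT. That last count was 9 with an intensity trend (2968 of all genes) and 2 with only both groups fitted (2188 of all genes). A second quantile normalization moved the median of that comparison to -0.091. Leaving out 1 array gave 1 to 2 lower genes for NR4A1 WT against GFP, 0 to 7 higher and 7 to 11 lower for NR4A1 CEAA against GFP, and 0 to 7 higher with a median from -0.134 to -0.086 for NR4A1 CEAA against NR4A1 WT. In the fits that kept at least 2 arrays a group, 1549 to 1916 of all genes were lower for NR4A1 WT against GFP. For NR4A1 CEAA against GFP, 764 to 1538 were higher and 1580 to 2512 lower, beside 2 to 7 and 10 to 11 of the 38. For NR4A1 CEAA against NR4A1 WT, 2396 to 2638 were higher, beside 2 to 7 of the 38. Without NR4A1 CEAA replicate 1, only 1 array of that group was left, and fewer of all genes were called higher in both of its comparisons. The loss of higher calls was therefore not limited to the genes described here. Their median in that fit was 0.015 for NR4A1 CEAA against GFP (0.014 with every array). For NR4A1 CEAA against NR4A1 WT it was -0.123 (-0.118 with every array).

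With the mean of all probe sets, 3 values turned: ARF4 was at -0.044 for NR4A1 CEAA against GFP, and for NR4A1 CEAA against NR4A1 WT SEC23B was at -0.18 and TFG at 0.058. COPB2, TFG and MCFD2 were no longer called for NR4A1 WT against GFP in that fit (adjusted p = 0.37, 0.527 and 0.142), nor were SEC23B, SEC24A and SEC24D for NR4A1 CEAA against GFP (0.371, 0.109 and 0.144) or COPB2, COPG2, SEC23A and MCFD2 for NR4A1 CEAA against NR4A1 WT (0.42, 0.0686, 0.157 and 0.165). COPE and ARFGAP2 kept their calls against GFP at smaller values, -0.44 and -0.35. For COPB2 (2.83), COPG2 (3.09), TFG and SEC24D, every averaged probe set but the followed one had a mean under the array medians. SEC24A and MCFD2 each had a dim probe set (4.18 and 3.47) and a brighter one (6.04 and 9.35). The further probe sets of SEC23B (9.27 and 7.63), ARF4 (10.65) and SEC23A (6.72) were not dim. The cause of these shifts was not tested.

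Replicate numbers did not pair the arrays: deviations of same-numbered arrays correlated between -0.041 and 0.086. With the replicate block, 4 of the 38 genes were higher for NR4A1 CEAA against GFP (8 without it). For NR4A1 CEAA against NR4A1 WT, 3 were higher (5 without it). Of all genes, 822 and 2268 were higher with the block in these comparisons, and 1411 and 2657 without it. The other counts of the 38 genes stayed within 1.5 times.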
